A study of Homo sapiens with 22 samples.

Results

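Transcript levels of 10 genes of the mammalian circadian clock were followed across ligand treatments of MDA-MB-231 cells. The 10 members, chosen by name as core clock components, are ARNTL (also called BMAL1), CLOCK, PER1, PER2, PER3, CRY1, CRY2, NR1D1, NR1D2 and DBP. They are 10 of the 20668 gene symbols listed for each sample, and all 10 were among the 12713 genes that passed the filter on low values (0.5 RPKM or more in 2 or more samples). RPKM is the number of reads on a gene per kilobase of transcript, scaled to the mapped reads of the sample, so levels of different genes are compared here per length. MDA-MB-231 is an established human triple-negative breast cancer (TNBC) line, and all samples come from this line. Before treatment every culture had been kept for 3 days without phenol red and with serum stripped by charcoal, a medium poor in steroid hormones. The 5 groups of 2 samples each were vehicle, 100 nM Dex for 2 h, 100 nM Dex for 4 h, 10 µM CpdA for 2 h and 10 µM CpdA for 4 h. Dex (dexamethasone) is a synthetic glucocorticoid that activates the glucocorticoid receptor (GR), and CpdA (Compound A) is a ligand of GR that was included to ask whether it regulates the same genes as Dex. The ligands were given at different doses, and each treatment time was compared with the same 2 vehicle samples. The labels of the vehicle samples give no time point, whereas the headers of the deposited tables mark replicate 1 with 2 h and replicate 2 with 4 h. Each comparison was therefore also made with 1 vehicle sample left out, and the values against the vehicle sample of the same header time are given where they matter.

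The circadian clock is a transcriptional feedback loop that runs in most cells of the body. The proteins of ARNTL and CLOCK bind as a pair to E-box elements and switch on the PER and CRY genes, whose proteins return to the nucleus and repress their own activators. In a linked loop NR1D1 and NR1D2 (REV-ERBα and REV-ERBβ) are nuclear receptors that repress ARNTL, and DBP is a PAR bZIP factor that carries the rhythm to output genes through D-box elements. Glucocorticoids are a known systemic time cue for clocks in peripheral tissues, PER1 is a classical GR target, and Dex is widely used to set the clocks of cultured cells. No sample series over a day was measured, so the values below are levels at 2 h and 4 h and not rhythms.

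The mapped reads per sample, estimated from the RPKM step that 1 read is worth, ran from about 51300000 to 62100000. Both vehicle samples, at 51300000 and 51900000, were shallower than every treated sample, of which the shallowest had 54200000. The 2 Dex 4 h samples differed from each other more than the samples of any other group, with a median absolute gap of 0.123 in log2(RPKM + 0.1) over the genes tested, against 0.0529 to 0.0827 in the other groups. The line's expected genes were high, with VIM at 1268 to 1464 RPKM, while ESR1 and PGR stayed at or below 0.00484 RPKM. ERBB2 (15.9 to 21.6 RPKM), EPCAM (8.02 to 10.6 RPKM) and GATA3 (3.75 to 6.6 RPKM) were present. Of 10 markers of other cell types, 7 were under 1 RPKM in every sample, and CD68 (31.4 to 34.9 RPKM), COL1A1 (1.23 to 2.60 RPKM) and PDGFRB (1.47 to 2.28 RPKM) were above it. The summed RPKM of these 10 markers was 37.5 to 37.7 in vehicle and 34.6 to 38.8 in the treated samples. FKBP5, a standard GR target, was at 5.94 and 7.06 RPKM in vehicle, 75.0 and 73.4 RPKM at Dex 2 h and 202.8 and 211.8 RPKM at Dex 4 h, whereas with CpdA it was between 5.97 and 7.96 RPKM, a rise that was called at 4 h (0.28 ± 0.07, adjusted p = 0.0226). NR3C1, which encodes GR itself, was at 22.9 and 20.4 RPKM in vehicle, 14.6 and 14.7 RPKM at Dex 2 h and 9.96 and 12.1 RPKM at Dex 4 h.

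Sequence around the start sites is shown for 4 members, PER1 and NR1D1 for their rise with Dex, NR1D2 for its E-boxes and D-box, and PER2 for its palindromic D-box. RefSeq promoter windows of 300 bases, 250 before and 50 after a start site, were found for all 10 members, 15 windows in all. The table gives them on GRCh38.p14, and each of the 15 windows was placed on GRCh37 by 1 exact match near its gene. In the 4 windows below, the capitals mark E-boxes (CACGTG), D-boxes (TTATGTAA or TTACGTAA) and AGGTCA, the half-site that NR1D and ROR receptors bind, each on either strand. The windows are read 5′ to 3′ on the strand of the gene.
PER1 promoter, chr17:8055673-8055972, minus strand: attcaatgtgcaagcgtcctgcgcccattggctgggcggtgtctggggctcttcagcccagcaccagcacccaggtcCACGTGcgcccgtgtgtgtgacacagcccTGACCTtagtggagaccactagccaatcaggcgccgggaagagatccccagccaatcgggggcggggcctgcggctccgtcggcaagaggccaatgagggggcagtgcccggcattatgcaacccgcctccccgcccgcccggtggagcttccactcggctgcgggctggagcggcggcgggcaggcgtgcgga
NR1D2 promoter, downstream start, chr3:23987362-23987661, plus strand: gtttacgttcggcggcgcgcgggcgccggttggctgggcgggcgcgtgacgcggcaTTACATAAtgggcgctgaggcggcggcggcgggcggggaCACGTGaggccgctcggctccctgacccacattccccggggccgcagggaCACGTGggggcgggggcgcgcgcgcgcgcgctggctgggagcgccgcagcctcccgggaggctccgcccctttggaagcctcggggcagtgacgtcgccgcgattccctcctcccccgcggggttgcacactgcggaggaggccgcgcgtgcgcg
PER2 promoter, chr2:239197202-239197501, minus strand: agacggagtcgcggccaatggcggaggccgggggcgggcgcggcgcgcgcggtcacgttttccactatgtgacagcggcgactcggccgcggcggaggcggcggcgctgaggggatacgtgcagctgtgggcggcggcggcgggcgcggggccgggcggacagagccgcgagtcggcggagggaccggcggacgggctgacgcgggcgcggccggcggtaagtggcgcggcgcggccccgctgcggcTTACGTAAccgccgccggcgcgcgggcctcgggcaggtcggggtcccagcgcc
NR1D1 promoter, chr17:38256793-38257092, minus strand: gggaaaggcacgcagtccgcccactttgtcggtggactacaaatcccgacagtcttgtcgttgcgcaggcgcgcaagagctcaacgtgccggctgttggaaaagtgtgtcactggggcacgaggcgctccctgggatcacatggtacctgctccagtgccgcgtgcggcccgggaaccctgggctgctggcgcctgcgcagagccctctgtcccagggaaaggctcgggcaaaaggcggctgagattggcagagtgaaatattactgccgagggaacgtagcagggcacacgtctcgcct
The PER1 window held 1 E-box, at position -173 from the start, and 1 AGGTCA on the opposite strand, at -144. The downstream NR1D2 window held E-boxes at -155 and -105 and a D-box on the opposite strand at -194. The PER2 window held a palindromic D-box at -3, and the NR1D1 window held none of these elements. Among the 10 members, 2 had an E-box in any window (PER1 and NR1D2), against 8.77% of the 27305 genes in the table. A D-box was found in 3 members (PER2, NR1D2 and, in a window not printed, PER3 at -177), against 1.27% of genes. AGGTCA was found in 3 members (PER1 and, in windows not printed, CRY2 and ARNTL), against 16.5% of genes. The cAMP half-site TGACG was found in 5 members (PER2, CRY1, CRY2, CLOCK and NR1D2), against 28.4% of genes. The GR half-site TGTTCT was in no member's windows and in those of 17.5% of genes. A TATAAA box was found in 1 member (CRY2), against 14.0% of genes. The full cAMP element TGACGTCA, which contains TGACG (2.25% of genes), the ROR element (an AGGTCA preceded by an A/T-rich stretch, 1.08% of genes) and the GR palindrome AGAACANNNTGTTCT (0.00366% of genes) were in no member's windows.

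A wider stretch, 10 kb to each side of the start of the canonical transcript on GRCh37, held no full GR palindrome in any of the 10 members, and held one in 0.388% of 11081 genes scanned. The looser GR consensus GNACANNNTGTNC, tried after that result was seen, had a match in 22.2% of the genes scanned and in 2 of the 10 members, PER1 and NR1D1, with 1 match each. Both matches are shown with 30 flanking bases on each side, read on the strand of the gene, with the consensus match in capitals.
PER1, chr17:8057749-8057821, minus strand: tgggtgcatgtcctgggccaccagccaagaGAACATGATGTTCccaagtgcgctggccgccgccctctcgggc
NR1D1, chr17:38254287-38254359, minus strand: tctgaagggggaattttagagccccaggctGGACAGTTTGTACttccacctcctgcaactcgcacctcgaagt
The PER1 match (chr17:8057779-8057791) lies at -2063 from the canonical start, inside the annotated gene span and in no annotated exon of PER1. The NR1D1 match (chr17:38254317-38254329) lies in an intron, 2519 bases after the start. A match of letters is a description of the sequence and not a measured binding site.

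The question put to these genes was which of them differed from vehicle with each ligand, in which direction, and whether Dex and CpdA differed. A gene was called at an adjusted p under 0.05 in limma, fitted over all 12713 genes, and differences are on the log2(RPKM + 0.1) scale. The vehicle samples are shared by all comparisons with vehicle. At Dex 2 h, 4 of the 10 members were higher and 1 was lower, where 4.49% and 5.82% of all genes tested were called in those directions. At Dex 4 h, 4 were higher and 3 lower, against 9.26% and 18.2% of all genes. At CpdA 2 h, 1 member was higher and none was lower, against 1.89% and 4.29% of all genes. At CpdA 4 h, 3 were higher and 3 lower, against 6.76% and 13.8% of all genes. The median difference of the 10 members was 0.15 at Dex 2 h, -0.02 at Dex 4 h, 0.07 at CpdA 2 h and -0.07 at CpdA 4 h, beside medians of -0.02, -0.05, -0.02 and -0.04 over all genes tested. Against only the vehicle sample of the same header time, the numbers of members called were 4 at Dex 2 h, 5 at Dex 4 h, 1 at CpdA 2 h and 4 at CpdA 4 h. Without CpdA 4 h replicate 2 no member was called at CpdA 4 h, and without either Dex 4 h sample CLOCK was called beside PER1 at CpdA 2 h. Of all genes called at Dex 4 h, 33.8% were higher, and with median scaling 49.9% were. For CpdA the share was 30.5% at 2 h (44.6% with median scaling) and 33.0% at 4 h (55.8%).

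**Figure D1:**
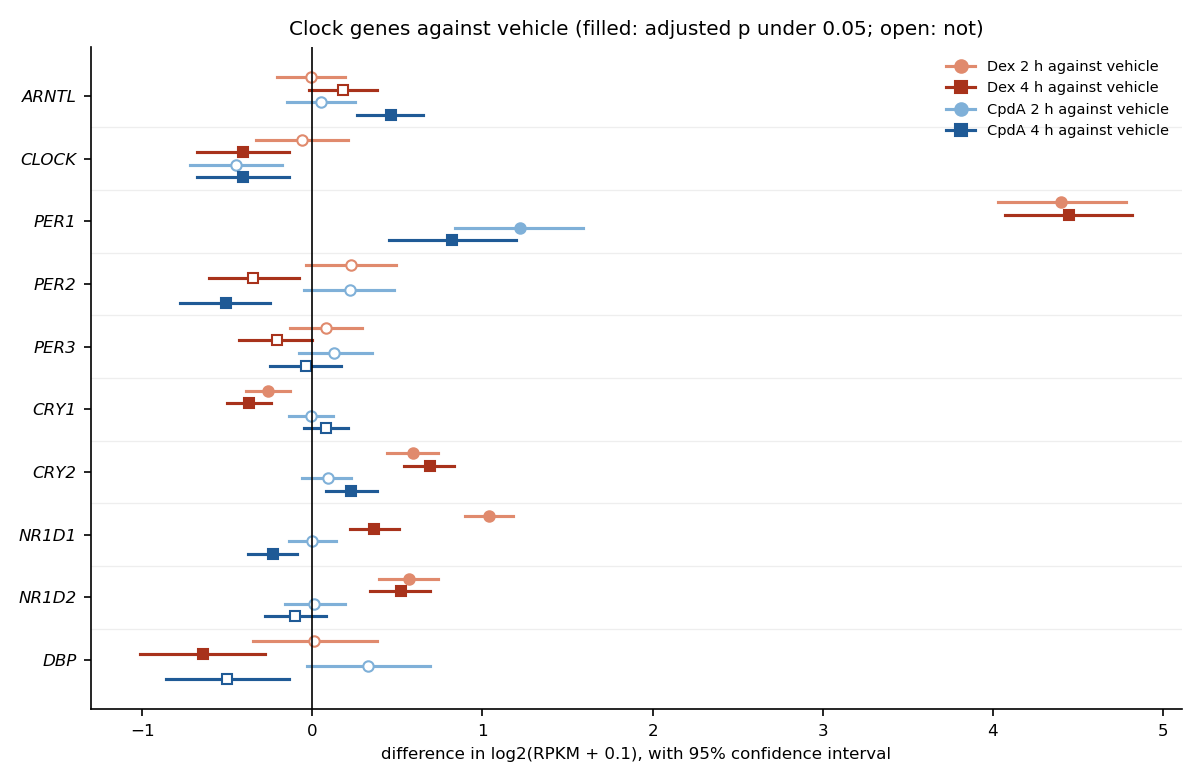
The plot shows, for each clock gene (rows), the difference from vehicle in log2(RPKM + 0.1) on the x axis for Dex at 2 h and 4 h and CpdA at 2 h and 4 h, with n = 2 per group. Points are limma estimates, bars are 95% confidence intervals, and filled points passed an adjusted p of 0.05. PER1 with Dex lies at 4.40 and 4.45, while no other point is beyond 1.22 in either direction.

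PER1, a repressor of the CLOCK-ARNTL pair that also acts as an immediate early gene, rose with both ligands and by far more with Dex than with CpdA. The gene spans chr17:8043790-8059824 on the minus strand of GRCh37, with 23 exons in its canonical transcript. It stood at 2.07 and 1.28 RPKM in vehicle, 34.9 and 37.9 RPKM at Dex 2 h, 38.7 and 36.6 RPKM at Dex 4 h, 3.96 and 3.86 RPKM at CpdA 2 h, and 2.88 and 3.02 RPKM at CpdA 4 h. The 4 Dex samples were all above the 4 CpdA samples, and these were all above both vehicle samples. The mean level was 21.8-fold that of vehicle at Dex 2 h and 22.5-fold at Dex 4 h, with log2 differences of 4.40 ± 0.17 (SE, adjusted p = 2.6e-07) and 4.45 ± 0.17 (adjusted p = 1.5e-07). With CpdA the ratio was 2.34 at 2 h (1.22 ± 0.17, adjusted p = 0.0033) and 1.77 at 4 h (0.82 ± 0.17, adjusted p = 0.0083). Among the 12713 genes, the PER1 difference ranked 3 from the top at Dex 2 h, 7 at Dex 4 h, 50 at CpdA 2 h and 127 after 4 h of CpdA. The vehicle samples were the least alike for this gene, with a gap of 0.66 on the log2 scale, replicate 1, with the 2 h header, being the higher. Against the vehicle sample of the same header time, the PER1 difference was 4.07 at Dex 2 h, 4.78 at Dex 4 h, 0.89 at CpdA 2 h and 1.15 at CpdA 4 h, all called, so the order of the CpdA times was the opposite of that against both vehicle samples. The CpdA 4 h call was lost without CpdA 4 h replicate 2 (adjusted p = 0.0581). The RNA comes from bulk cultures, so more cells with the transcript and more transcript per cell cannot be told apart.

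PER2 and PER3, the paralogues of PER1, were called higher in none of the comparisons with vehicle. PER2 spans chr2:239152685-239198743 (minus strand) and PER3 chr1:7844351-7905237 (plus strand). PER2 measured 1.40 and 1.22 RPKM in vehicle, 1.62 and 1.47 RPKM at Dex 2 h, 0.948 and 1.06 RPKM at Dex 4 h, 1.54 and 1.53 RPKM at CpdA 2 h, and 0.944 and 0.831 RPKM at CpdA 4 h. The 2 h samples of both ligands lay above both vehicle samples and the 4 h samples lay below them. Against vehicle only the fall at CpdA 4 h was called (-0.51 ± 0.12, adjusted p = 0.0147). The difference at Dex 4 h was -0.35 (adjusted p = 0.0546), and those at 2 h were 0.23 with Dex (adjusted p = 0.317) and 0.22 with CpdA (adjusted p = 0.340). The CpdA 4 h call of PER2 was lost without vehicle replicate 1 or CpdA 4 h replicate 2, with adjusted p up to 0.113 over the alternatives. PER3 measured 4.27 and 3.71 RPKM in vehicle, 4.34 and 4.10 RPKM at Dex 2 h, 3.26 and 3.59 RPKM at Dex 4 h, 4.69 and 4.08 RPKM at CpdA 2 h, and 3.94 and 3.79 RPKM at CpdA 4 h. PER3 was called in none of the 9 comparisons made, apart from the fall between Dex 2 h and 4 h once Dex 4 h replicate 2 was left out (adjusted p = 0.0416), and its difference farthest from 0 against vehicle was -0.21 at Dex 4 h (95% interval -0.43 to 0.00, adjusted p = 0.131).

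The make-up of the PER family in summed RPKM differed between groups. In vehicle PER3 was the most abundant PER transcript, with 57.5% of the summed PER RPKM, and PER1 held 26.7% and 20.5% in the 2 samples. PER1 held 85.4% and 87.2% at Dex 2 h and 90.2% and 88.7% at Dex 4 h. With CpdA it held 38.8% and 40.8% at 2 h and 37.1% and 39.5% at 4 h, and PER3 remained the most abundant of the family. The summed PER RPKM was 6.97 on average in vehicle, 42.2 and 42.1 at Dex 2 h and 4 h, and 9.83 and 7.71 at CpdA 2 h and 4 h.

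The cryptochromes CRY1 and CRY2, repressors that bind the CLOCK-ARNTL pair with the PER proteins, moved in opposite directions with Dex. CRY1 spans chr12:107385142-107487327 (minus strand) and CRY2 chr11:45868669-45904799 (plus strand). CRY1, the most abundant of the 10 members in vehicle, measured 13.7 and 13.3 RPKM there, 11.2 and 11.3 RPKM at Dex 2 h, 10.3 and 10.6 RPKM at Dex 4 h, 13.6 and 13.1 RPKM at CpdA 2 h, and 15.0 and 13.5 RPKM at CpdA 4 h. Every Dex sample was below every vehicle and CpdA sample. CRY1 fell by 0.26 ± 0.06 at Dex 2 h (adjusted p = 0.0175) and by 0.37 ± 0.06 at Dex 4 h (adjusted p = 0.0011), with values of -0.01 and 0.08 for CpdA that did not pass. The Dex 2 h call was lost without any 1 of the vehicle or Dex 2 h samples (adjusted p up to 0.116), and the Dex 4 h call was kept in all 19 alternatives. CRY2 measured 3.55 and 3.26 RPKM in vehicle, 5.23 and 5.11 RPKM at Dex 2 h, 5.65 and 5.42 RPKM at Dex 4 h, 3.67 and 3.56 RPKM at CpdA 2 h, and 3.92 and 4.08 RPKM at CpdA 4 h. The 4 Dex samples were above all others, and the CpdA 4 h samples were next. CRY2 rose at Dex 2 h (0.59 ± 0.07, adjusted p = 0.00031) and at Dex 4 h (0.69 ± 0.07, adjusted p = 5.7e-05), and both calls were kept in all 19 alternatives. The rise at CpdA 4 h was smaller (0.23 ± 0.07, adjusted p = 0.0358) and was lost in 8 alternatives, among them without vehicle replicate 2 and without either CpdA 4 h sample (adjusted p up to 0.202). The share of CRY2 in the summed CRY RPKM was 20.6% and 19.6% in vehicle, 31.8% and 31.1% at Dex 2 h, 35.4% and 33.9% after 4 h of Dex, and 20.7% to 23.2% in the 4 CpdA samples, while the sum itself stayed between 15.9 and 19.0 RPKM in all samples.

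**Figure D2:**
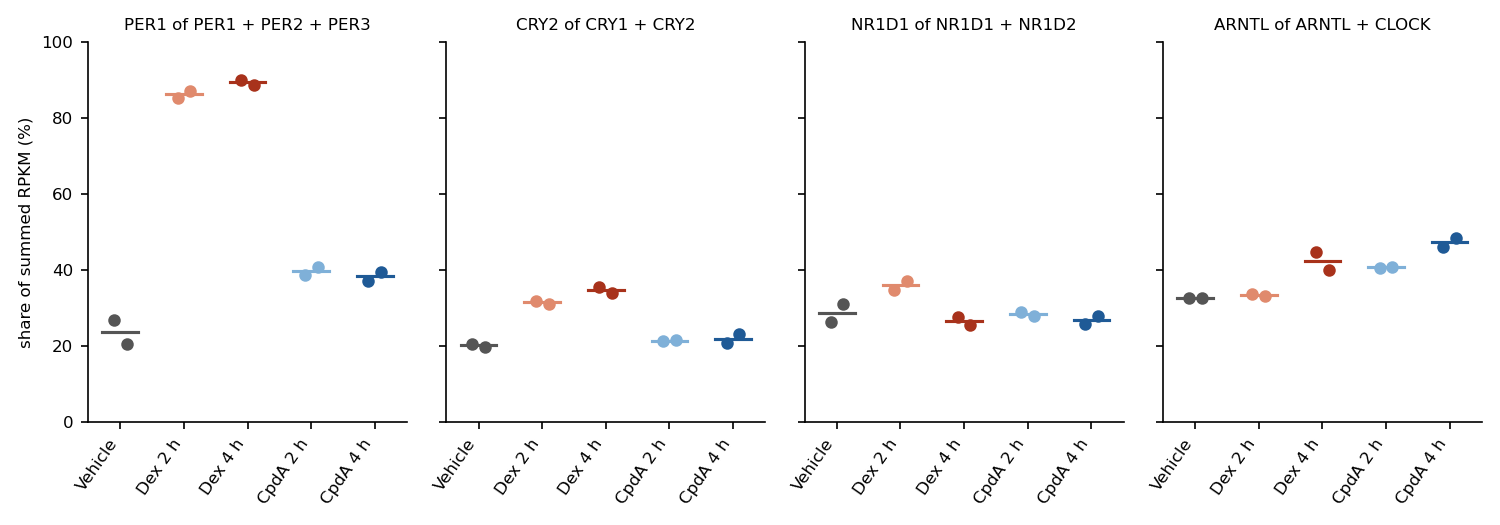
The panels show the share in percent of the summed RPKM taken by PER1 within PER1, PER2 and PER3, by CRY2 within CRY1 and CRY2, by NR1D1 within NR1D1 and NR1D2, and by ARNTL within ARNTL and CLOCK. Each point is a sample and each line the mean of the 2 samples of a group. The mean PER1 share goes from 23.6% in vehicle to 86.3% and 89.5% with Dex and 39.8% and 38.3% with CpdA.

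ARNTL and CLOCK are the paired activators of the loop, and against vehicle ARNTL was called at CpdA 4 h and CLOCK at 4 h with both ligands. ARNTL spans chr11:13298199-13408813 (plus strand) and CLOCK chr4:56294070-56413076 (minus strand). ARNTL measured 3.21 and 3.12 RPKM in vehicle, 3.19 and 3.09 RPKM at Dex 2 h, 3.38 and 3.82 RPKM at Dex 4 h, 3.14 and 3.42 RPKM at CpdA 2 h, and 4.12 and 4.66 RPKM at CpdA 4 h. Both CpdA 4 h samples were above all other samples. ARNTL rose at CpdA 4 h (0.46 ± 0.09, adjusted p = 0.0062), a call that was lost only without CpdA 4 h replicate 2 (adjusted p = 0.0645). At Dex 4 h the ARNTL difference was 0.18 (adjusted p = 0.169), and quantile normalization alone among the alternatives took it past the threshold (adjusted p = 0.0289). CLOCK measured 6.61 and 6.44 RPKM in vehicle, 6.29 and 6.21 RPKM at Dex 2 h, 4.18 and 5.72 RPKM at Dex 4 h, 4.59 and 4.93 RPKM at CpdA 2 h, and 4.83 and 4.95 RPKM at CpdA 4 h. All treated samples were below both vehicle samples, and the Dex 4 h samples were 0.44 apart on the log2 scale. CLOCK fell by 0.41 ± 0.12 at Dex 4 h (adjusted p = 0.0314) and by 0.41 ± 0.12 at CpdA 4 h (adjusted p = 0.0400), while at CpdA 2 h the difference was the farthest from 0 but did not pass (-0.45, adjusted p = 0.0611), and it was called in 4 of 19 alternatives. Each of the called CLOCK differences was lost in 12 of 19 alternatives, among them both scalings and the omission of either vehicle sample, with adjusted p up to 0.120 at Dex 4 h and 0.174 at CpdA 4 h. At Dex 4 h the CLOCK difference ranged from -0.63 without replicate 2 of that group to -0.19 without replicate 1. TMEM165, a neighbour on the opposite strand, was lower with CpdA as well (63.7 and 66.6 RPKM in vehicle, 47.3 and 42.1 at 2 h, 37.9 and 37.1 at 4 h). Exons of any TMEM165 transcript overlap 0.726% of the 10470 bases of canonical CLOCK exons, and its canonical exons overlap none. Strand was not stated for the libraries.

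NR1D1 and NR1D2, the nuclear receptor repressors of ARNTL, both rose with Dex, and NR1D1 was lower again at 4 h than at 2 h. NR1D1 spans chr17:38249046-38256842 (minus strand) and NR1D2 chr3:23986777-24022108 (plus strand). NR1D1 measured 4.37 and 4.73 RPKM in vehicle, 9.27 and 9.64 RPKM at Dex 2 h, 5.96 and 5.79 RPKM at Dex 4 h, 4.71 and 4.38 RPKM at CpdA 2 h, and 3.83 and 3.87 RPKM at CpdA 4 h. The Dex 2 h samples were the highest, the Dex 4 h samples next, and the CpdA 4 h samples the lowest. NR1D1 was 2.08-fold higher at Dex 2 h (1.04 ± 0.06, adjusted p = 6.3e-06) and 1.29-fold higher at Dex 4 h (0.36 ± 0.06, adjusted p = 0.0025), and both calls were kept in all 19 alternatives. At CpdA 2 h it did not pass (0.00, 95% interval -0.14 to 0.14), and at CpdA 4 h it fell by 0.23 ± 0.06 (adjusted p = 0.0308). That fall was lost in 8 alternatives, among them quantile normalization, median scaling and the omission of vehicle replicate 2 or of either CpdA 4 h sample (adjusted p up to 0.187). NR1D2 measured 12.2 and 10.5 RPKM in vehicle, 17.4 and 16.3 RPKM at Dex 2 h, 15.6 and 16.9 RPKM at Dex 4 h, 11.5 and 11.3 RPKM at CpdA 2 h, and 11.0 and 10.1 RPKM at CpdA 4 h. The 4 Dex samples were above all others. NR1D2 rose at Dex 2 h (0.57 ± 0.08, adjusted p = 0.0014) and at Dex 4 h (0.52 ± 0.08, adjusted p = 0.0011), kept in all 19 alternatives. Against the vehicle sample of the same header time the NR1D2 differences with Dex were 0.46 at 2 h and 0.62 at 4 h. Its difference between Dex 4 h and 2 h was -0.05 (adjusted p = 0.711), and the CpdA differences of 0.01 and -0.10 did not pass. The end of NR1D1 overlaps THRA, the thyroid hormone receptor gene on the opposite strand. Exons of any THRA transcript cover 18.0% of the canonical NR1D1 exon bases, and its canonical exons cover 7.98%. THRA measured 4.66 and 3.67 RPKM in vehicle, 9.35 and 8.94 RPKM at Dex 2 h, and 12.3 and 13.3 RPKM at Dex 4 h. At Dex 2 h both genes were higher than vehicle, THRA by 1.13 (adjusted p = 8.3e-05) and NR1D1 by 1.04. From 2 h to 4 h with Dex, THRA rose (0.48, adjusted p = 0.0158) as NR1D1 fell (-0.68). At CpdA 4 h THRA was lower than vehicle (2.95 and 3.19 RPKM, adjusted p = 0.0190), as NR1D1 was, and the part of shared reads in the NR1D1 values was not tested. NKIRAS1, which neighbours NR1D2 on the opposite strand, has no exon over the canonical NR1D2 exons. NKIRAS1 also rose with Dex, by 0.28 at 2 h (adjusted p = 0.0085) and by 0.29 at 4 h (adjusted p = 0.0032). Its CpdA differences from vehicle of -0.04 and -0.16 did not pass.

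DBP, the output factor, was the least abundant member in vehicle and was lower at 4 h than at 2 h with both ligands. The gene spans chr19:49133287-49140636 (minus strand), with 4 exons in its canonical transcript. It measured 1.17 and 0.882 RPKM in vehicle, 0.938 and 1.13 RPKM at Dex 2 h, 0.560 and 0.678 RPKM at Dex 4 h, 1.27 and 1.34 RPKM at CpdA 2 h, and 0.680 and 0.704 RPKM at CpdA 4 h. The 4 h samples of both ligands were below all vehicle and 2 h samples. DBP fell by 0.64 ± 0.16 at Dex 4 h (adjusted p = 0.0158), a call lost without vehicle replicate 1, without Dex 4 h replicate 1 or in a fit of those 2 groups alone (adjusted p up to 0.0977). At CpdA 4 h the difference was -0.50 (adjusted p = 0.0574), and at 2 h it was 0.01 with Dex and 0.33 with CpdA (adjusted p = 0.977 and 0.292). The vehicle samples were 0.38 apart on the log2 scale, replicate 1, with the 2 h header, being the higher. Against the vehicle sample of the same header time the DBP difference was -0.17 at Dex 2 h and 0.14 at CpdA 2 h. At 4 h it was -0.45 with Dex and -0.31 with CpdA. In the sample with its lowest level, Dex 4 h replicate 1, DBP rests on only about 66 reads by canonical length, for which counting alone gives a spread near 12.0%, against 310 reads or more for every other member. Exons of any transcript of SPHK2, on the opposite strand, cover 30.5% of the canonical DBP exon bases, and its canonical exons cover 17.3%. SPHK2 was between 6.26 and 7.17 RPKM in all samples and was called in no comparison.

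**Figure D3:**
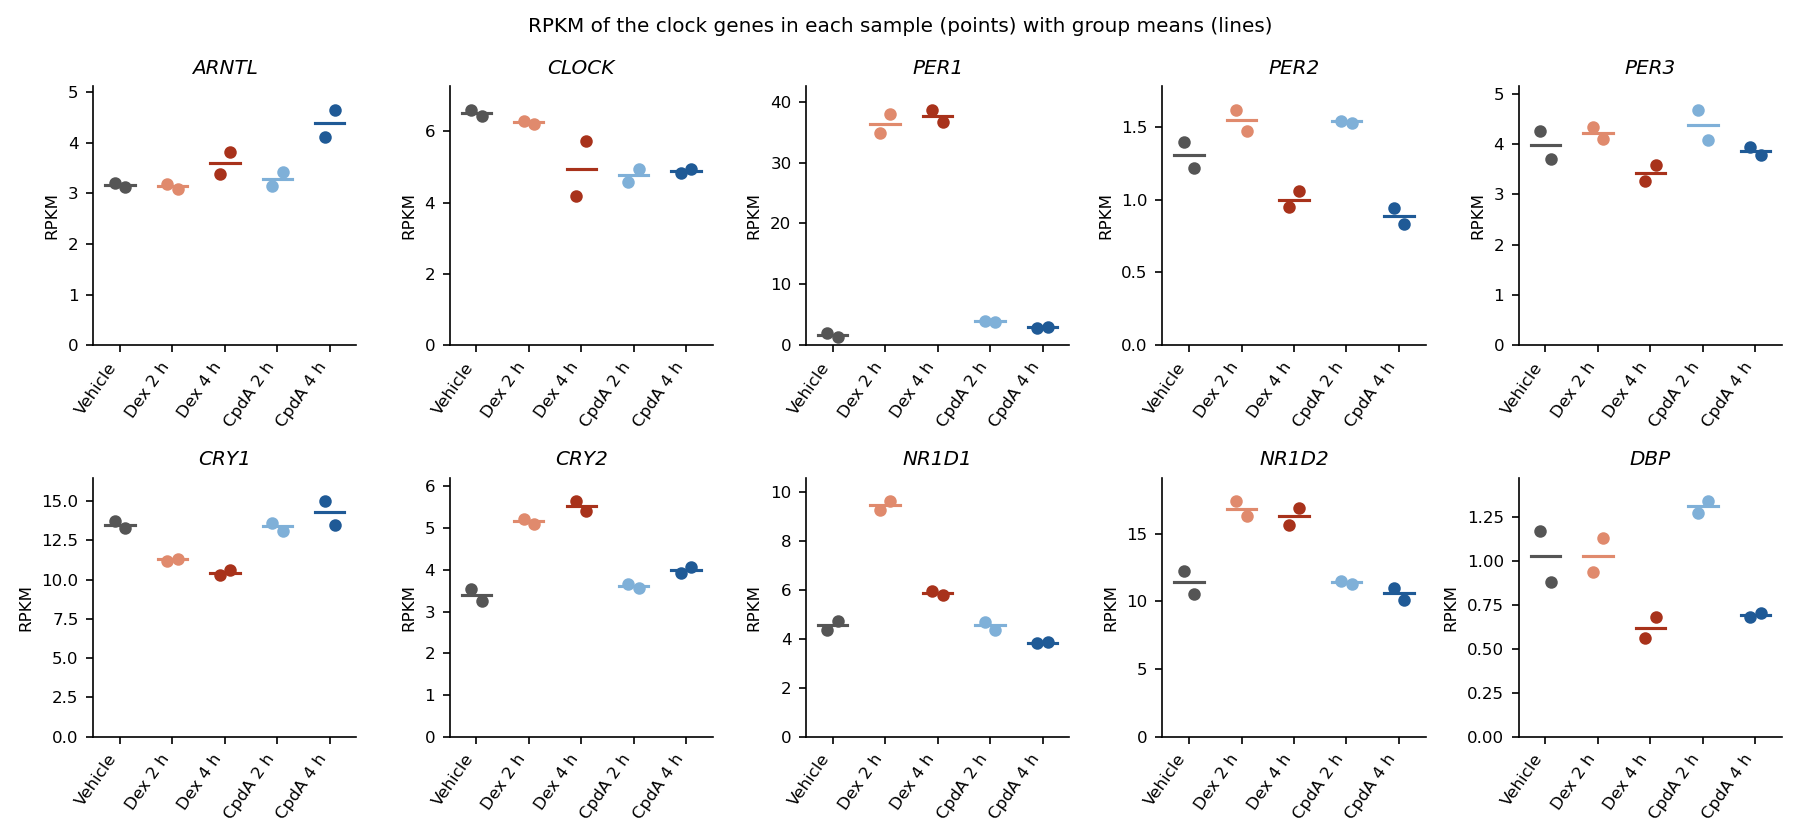
Each panel gives the RPKM (y axis, from 0) of a clock gene in the 10 samples, with points for samples, lines for group means and colours for the 5 groups. PER1 reaches 34.9 to 38.7 RPKM with Dex against 1.28 and 2.07 RPKM in vehicle, and DBP and PER2 are lowest at 4 h with either ligand.

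The change from 2 h to 4 h was compared within each ligand. There was no separate vehicle group for each time, so a change with ligand and one with time in culture cannot be told apart. The vehicle samples with the 2 h and 4 h headers measured 1.40 and 1.22 RPKM for PER2 and 1.17 and 0.882 RPKM for DBP. For NR1D1 they measured 4.37 and 4.73 RPKM, and for ARNTL 3.21 and 3.12 RPKM. With Dex none of the members was higher at 4 h than at 2 h and 3 were lower, where 4.55% and 9.02% of all genes were called in those directions. These were PER2 (-0.58 ± 0.12, adjusted p = 0.0135), NR1D1 (-0.68 ± 0.06, adjusted p = 0.00033) and DBP (-0.66 ± 0.16, adjusted p = 0.0285). With CpdA 1 member was higher and 3 were lower, against 5.21% and 7.20% of all genes. ARNTL was the member that rose (0.41 ± 0.09, adjusted p = 0.0181), and PER2 (-0.73 ± 0.12, adjusted p = 0.0065), DBP (-0.83 ± 0.16, adjusted p = 0.0124) and NR1D1 (-0.23 ± 0.06, adjusted p = 0.0439) fell. Without Dex 4 h replicate 2 the Dex comparison called 5 members, and without Dex 4 h replicate 1 or either Dex 2 h sample it called 1, NR1D1. The CpdA comparison called none without either CpdA 2 h sample or without CpdA 4 h replicate 2, though the 4 differences named kept their sign. The NR1D1 fall with CpdA was lost in 10 of 19 alternatives, among them a pseudocount of 1, no filter on low values, quantile normalization and median scaling (adjusted p up to 0.275). The share of higher genes among all those called was 33.5% with Dex and 42.0% with CpdA, and 53.3% and 54.6% with median scaling. PER1 did not pass in either (0.05 with Dex, -0.39 with CpdA, adjusted p = 0.878 and 0.158).

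**Figure D4:**
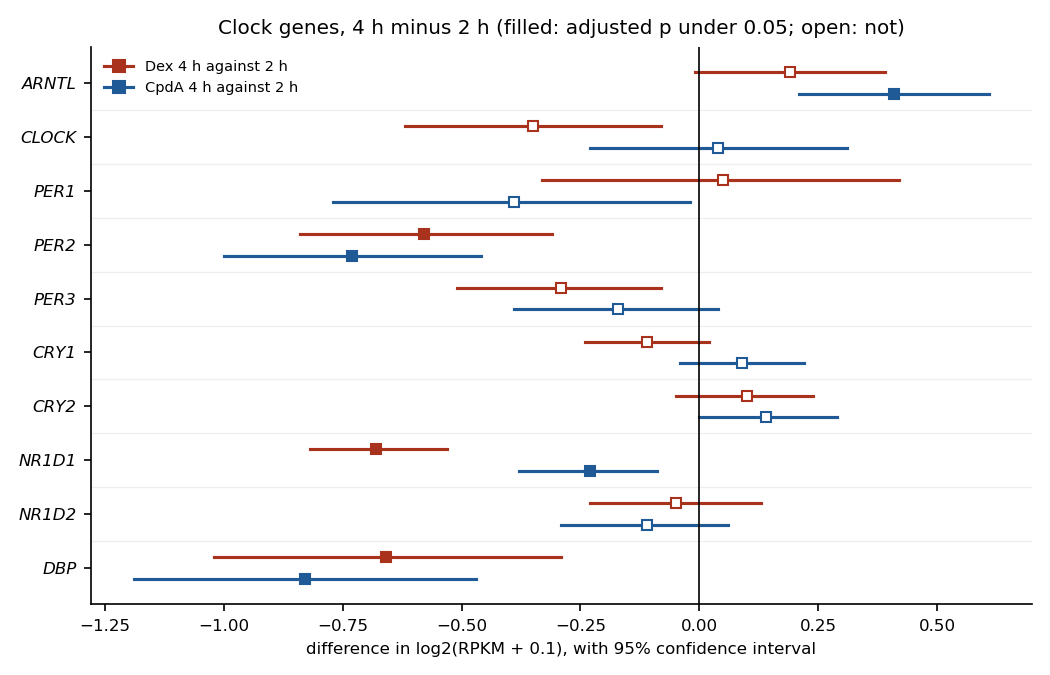
The plot gives the 4 h minus 2 h difference in log2(RPKM + 0.1) on the x axis for each clock gene under Dex and under CpdA, as limma estimates with 95% confidence intervals from 2 samples per group. Filled points passed an adjusted p of 0.05. PER2 and DBP lie between -0.83 and -0.58 for both ligands, and NR1D1 lies at -0.68 with Dex and -0.23 with CpdA.

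Whether that change depended on the ligand was tested with an interaction term, in which 6.6% of all genes were called. NR1D1 was the only member called, with a change from 2 h to 4 h that was 0.44 ± 0.09 lower with Dex than with CpdA (-0.44, adjusted p = 0.0209). This call was lost without any 1 of the Dex 2 h, CpdA 2 h or CpdA 4 h samples (adjusted p up to 0.104), with a difference between -0.50 and -0.39 throughout. For the members that fell with both ligands, the interaction was 0.15 for PER2 (95% interval -0.22 to 0.53) and 0.17 for DBP (-0.34 to 0.68), intervals that leave room for a difference of either sign.

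Dex and CpdA were also compared directly at each time, at the unequal doses given. At 2 h, 4 members were higher with Dex and 1 was lower, against 7.53% and 6.18% of all genes. At 4 h, 4 were higher with Dex and 2 were lower, against 15.4% and 18.0% of all genes. PER1 was 9.31-fold higher with Dex at 2 h (3.19 ± 0.17, adjusted p = 2e-06) and 12.7-fold higher at 4 h (3.63 ± 0.17, adjusted p = 4.1e-07). NR1D1 was 2.08-fold and 1.53-fold higher, NR1D2 1.47-fold and 1.54-fold higher, and CRY2 1.43-fold and 1.38-fold higher, with adjusted p of at most 0.0013 in each case. CRY1 was lower with Dex at both times (-0.25, adjusted p = 0.0176, and -0.45, adjusted p = 0.00027). ARNTL was lower with Dex at 4 h (-0.28 ± 0.09, adjusted p = 0.0354), a call lost in 8 alternatives, among them without Dex 4 h replicate 1 or CpdA 4 h replicate 2. The CRY1 call at 2 h was lost without any 1 of the Dex 2 h or CpdA 2 h samples (adjusted p up to 0.148). PER2, PER3 and DBP were called at neither time, with 95% intervals at 4 h of -0.10 to 0.43, -0.38 to 0.04 and -0.51 to 0.22. CLOCK was 0.39 higher with Dex at 2 h (6.29 and 6.21 against 4.59 and 4.93 RPKM), which did not pass (adjusted p = 0.0659). This difference was called in 3 of 19 alternatives, with only the groups compared and without either Dex 4 h sample. The Dex 4 h samples are not part of this comparison but enter its estimate of spread. For CLOCK at 4 h the difference was 0.00, and it went from -0.22 without Dex 4 h replicate 2 to 0.22 without replicate 1 of that group.

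By level in vehicle the members ran, in mean RPKM, CRY1 13.5, NR1D2 11.4, CLOCK 6.52, NR1D1 4.55, PER3 3.99, CRY2 3.40, ARNTL 3.16, PER1 1.67, PER2 1.31 and DBP 1.03. These levels lie between the percentiles 10.4 and 62.6 of the genes tested. With Dex the mean PER1 level (36.4 and 37.6 RPKM) was above that of every other member. The ratio of the highest to the lowest group mean was 22.5 for PER1, 2.46 for NR1D1 and 2.11 for DBP, and between 1.28 and 1.74 for the other members. Within genes, the order of the groups separated fully only for CRY2 (Dex 4 h, Dex 2 h, CpdA 4 h, CpdA 2 h, vehicle), where no neighbouring groups overlapped. For PER3 only Dex 4 h and CpdA 4 h, the lowest groups, did not overlap as neighbours.

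For the members called with more than a 2-fold change, the 3 genes with the most similar log2 levels over the 10 samples were looked up. The samples fall into 5 groups, so these values describe shared group levels. For PER1 they were LOC101928841 (r = 0.997), ELL2 (r = 0.991), a transcription elongation factor, and CEBPB (r = 0.990), a bZIP transcription factor. CEBPB averaged 26.2 RPKM in vehicle, 232.6 and 202.2 RPKM at Dex 2 h and 4 h, and 38.2 and 36.7 RPKM at CpdA 2 h and 4 h. For NR1D1 they were TGS1 (r = 0.957), IKZF2 (r = 0.947) and ZEB2 (r = 0.945), of which TGS1 averaged 5.36 RPKM in vehicle, 12.5 and 8.97 RPKM with Dex, and 5.06 and 5.14 RPKM with CpdA.

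Other genes of the clock pathway were taken from a list of 63 symbols in 5 roles, of which 57 passed the filter. At Dex 2 h, 12 of the 57 were higher and 6 lower, where 4.49% and 5.82% of all genes were, and at Dex 4 h, 12 were higher and 10 lower, where 9.26% and 18.2% of all genes were. At CpdA 2 h, 7 were higher and 1 lower, against 1.89% and 4.29% of all genes, and at CpdA 4 h, 10 were higher and 4 lower, against 6.76% and 13.8%. Their median differences were -0.02, -0.05, 0.02 and -0.02. Between the ligands 9 were higher and 8 lower with Dex at 2 h, against 7.53% and 6.18% of all genes, and 14 and 13 at 4 h, against 15.4% and 18.0%. Without Dex 2 h replicate 1 the Dex 2 h count of 18 was 11, and without Dex 4 h replicate 2 the Dex 4 h count of 22 was 35. The CpdA 2 h count of 8 ran from 4, without either sample of that group, to 16, without either Dex 4 h sample. The CpdA 4 h count of 14 was 9 without either sample of that group.

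The counts by role below are to be read against the shares of all genes called in either direction, which were 10.3% at Dex 2 h, 27.4% at Dex 4 h, 6.18% at CpdA 2 h and 20.5% at CpdA 4 h. Among the partners and loop factors (10 tested), 2 rose and 1 fell at Dex 2 h, 2 rose and 5 fell at Dex 4 h, 1 rose at CpdA 2 h, and 1 rose and 1 fell at CpdA 4 h. CIART, a repressor of the CLOCK-ARNTL pair, measured 0.384 and 0.417 RPKM in vehicle, 1.17 and 0.983 RPKM at Dex 2 h and 2.36 and 1.88 RPKM at Dex 4 h. Its rise was 1.23 ± 0.17 (adjusted p = 0.0013) and 2.14 ± 0.17 (adjusted p = 1.7e-05), and the CpdA samples, at 0.454 to 0.669 RPKM, were not called against vehicle. NFIL3, a repressor that competes with DBP for D-boxes, measured 12.6 and 10.0 RPKM in vehicle, 29.6 and 31.4 RPKM at Dex 2 h, 25.4 and 25.4 RPKM at Dex 4 h, 21.2 and 21.4 RPKM at CpdA 2 h, and 13 and 13.4 RPKM at CpdA 4 h. NFIL3 rose with both ligands at 2 h (1.43 and 0.91, adjusted p = 6.9e-06 and 0.00056) and with Dex at 4 h (1.17, adjusted p = 1.3e-05), and its Dex values against the vehicle sample of the same header time were 1.27 and 1.33. BHLHE40, an E-box repressor, measured 94.0 and 63.1 RPKM in vehicle, 44.6 and 47.3 RPKM at Dex 2 h and 34.7 and 34.9 RPKM at Dex 4 h. It fell by 0.74 ± 0.14 (adjusted p = 0.0094) and by 1.14 ± 0.14 (adjusted p = 0.00034), with values of -1.03 and -0.86 against the vehicle sample of the same header time, where the order of the times is the opposite. Its paralogue BHLHE41 fell by 0.92 ± 0.17 at Dex 4 h (adjusted p = 0.0041) and by 0.60 ± 0.17 at CpdA 4 h (adjusted p = 0.0413).

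Among the kinases and phosphatases that act on clock proteins (13 tested), 2 rose and 2 fell at each Dex time (10.3% and 27.4% of all genes called), none was called at CpdA 2 h (6.18%), and 2 rose and 1 fell at CpdA 4 h, where PPP1CC went from 89.3 and 92.5 RPKM in vehicle to 76.9 and 75.7 RPKM (-0.25, adjusted p = 0.0017). Of the ubiquitin enzymes (9 tested) 1 rose in each comparison with vehicle and none fell. SIAH2, an E3 ligase, was the one that rose at CpdA 4 h (0.46 ± 0.07, adjusted p = 0.0026). Of the cofactors (13 tested) 1 rose and 1 fell at Dex 2 h, 2 rose at Dex 4 h, and none was called with CpdA against vehicle, beside the same shares of all genes. SIRT1, a deacetylase, was the one that fell at Dex 2 h, from 7.26 and 7.39 RPKM to 6.20 and 6.12 RPKM (-0.25, adjusted p = 0.0342).

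Among genes commonly under clock control (12 tested), 6 rose and 2 fell at Dex 2 h, 5 rose and 3 fell at Dex 4 h, 5 rose and 1 fell at CpdA 2 h, and 6 rose and 2 fell at CpdA 4 h. Of all genes, Dex raised 4.49% and lowered 5.82% at 2 h and raised 9.26% and lowered 18.2% at 4 h, and for CpdA the shares were 1.89% higher with 4.29% lower and then 6.76% higher with 13.8% lower. Several of these are also known GR targets. TSC22D3 (GILZ) rose by 5.06 and 5.10 with Dex and by 0.44 and 0.27 with CpdA. KLF9, a zinc finger factor, measured 0.689 and 0.625 RPKM in vehicle, 9.75 and 10.2 RPKM at Dex 2 h, 10.3 and 11.1 RPKM at Dex 4 h, and 0.683 to 0.829 RPKM in the CpdA samples, and its rise was 3.74 and 3.83 with Dex (adjusted p = 5e-08 and 2e-08). DUSP1, a MAP kinase phosphatase, rose with both ligands. It measured 14.6 and 11.6 RPKM in vehicle, 101.4 and 100.6 RPKM at Dex 2 h, 122.5 and 124.9 RPKM at Dex 4 h, 90.8 and 86.5 RPKM at CpdA 2 h, and 46.8 and 47.4 RPKM at CpdA 4 h. Its change from 2 h to 4 h differed between the ligands (interaction 1.2 ± 0.12, adjusted p = 0.0011). WEE1, a mitotic inhibitor kinase, measured 13.1 and 11.0 RPKM in vehicle, 17.8 and 17.9 RPKM at CpdA 2 h and 8.20 and 7.87 RPKM at CpdA 4 h, a rise of 0.57 (adjusted p = 0.0033) and then a fall of 0.57 (-0.57, adjusted p = 0.001). With Dex WEE1 measured 16.1 and 15.9 RPKM at 2 h and 11.9 and 11.0 RPKM at 4 h. Its difference between Dex 4 h and 2 h was -0.48 (adjusted p = 0.0046). CDKN1A, a cell cycle inhibitor, measured 134.2 and 110.3 RPKM in vehicle and rose in all 4 comparisons, by 1.65 and 1.39 with Dex and by 0.63 and 0.72 with CpdA (adjusted p at most 0.0019). NAMPT, the enzyme of NAD salvage, rose with CpdA (0.30 and 0.57, adjusted p = 0.0107 and 0.00015), from 42.0 and 38.5 RPKM in vehicle to 59.3 and 59.8 RPKM at 4 h. CCRN4L (nocturnin) measured 15.8 and 11.2 RPKM in vehicle and 5.79 to 6.82 RPKM in the Dex samples, and VEGFA 124.0 and 93.3 RPKM in vehicle and 42.2 to 58.9 RPKM in the Dex samples. Both fell with Dex, CCRN4L by 1.03 and 1.11 (adjusted p = 0.00094 and 0.00028) and VEGFA by 1.00 and 1.32 (adjusted p = 0.00063 and 5e-05). Against the vehicle sample of the same header time the values at Dex 2 h and 4 h were -1.28 and -0.86 for CCRN4L, -1.21 and -1.12 for VEGFA, and 1.51 and 1.53 for CDKN1A, so the order of the times turned for all 3 genes.

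**Figure D5:**
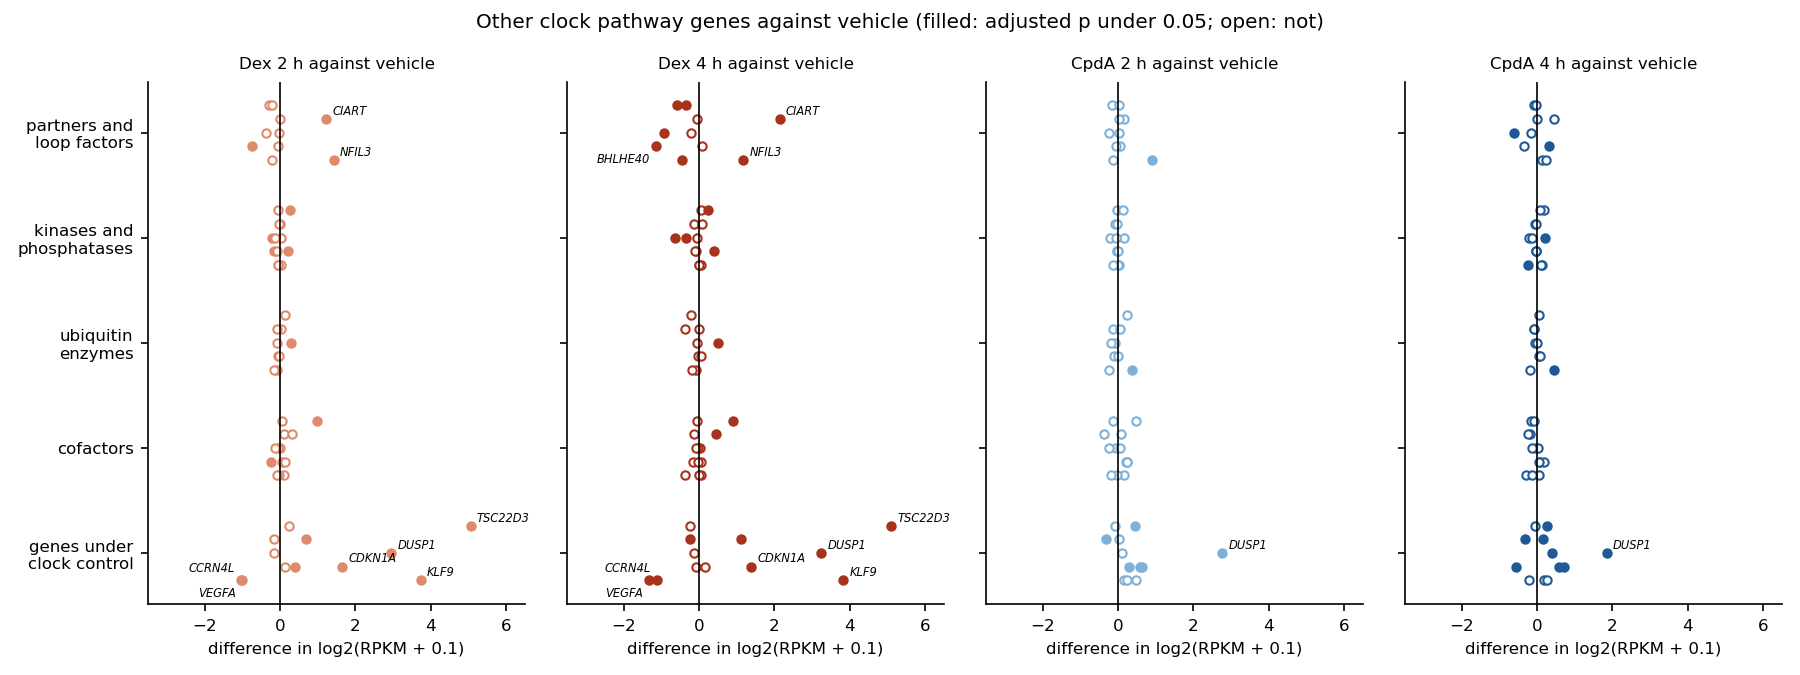
The panels give the difference from vehicle in log2(RPKM + 0.1) on the x axis for the 57 other clock pathway genes tested, in rows by role, with 1 panel for each ligand and time. Each point is a gene, filled where its adjusted p was under 0.05, and called genes described in the text with a difference of at least 1 in size are named. TSC22D3, KLF9 and DUSP1 lie farthest to the right with Dex, and DUSP1 is the only gene past 1 with CpdA.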

How the data were processed

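Single-end RNA-seq reads of 10 samples (Illumina TruSeq RNA kit, strand not stated) were aligned by the authors with TopHat2 2.0.13 and quantified with Partek 6.6, and the deposited values are RPKM for 20668 gene symbols per sample. The submitters' notes name hg19 for the series without tying it to an assay, and how transcripts were combined into symbols is not given in the sources used here. The 12 ChIP samples were not analysed here. Mapped reads were estimated from the RPKM step of 1 read over genes with a single transcript, and give counting error only.

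Genes at 0.5 RPKM or more in 2 or more samples were used. Values were transformed as log2(RPKM + 0.1), which understates changes of low genes, and limma 3.58.1 (R 4.3.3) estimated the mean of each of the 5 groups (eBayes with an abundance trend, Benjamini-Hochberg adjustment over 12713 genes). P-values rest on the spread between the 2 samples of each group, pooled over the 5 groups and moderated across genes. The study calls these samples biological replicates. The vehicle samples carry different header times, so replicate spread and a difference of time cannot be told apart between them. The fit was tested on simulated data. Tables used pandas 2.3.3 and numpy 2.4.6 under Python 3.11.15, and figures matplotlib 3.10.9. Positions and exons came from GENCODE annotation lifted to GRCh37, and promoter windows from RefSeq (GRCh38.p14). Alternatives were pseudocounts of 1 and 0.01, no filter, a minimum of 1 RPKM in all samples, quantile normalization, median scaling, no trend, a replicate block, only the groups compared, and each sample left out. Differences of other clock genes from 1 vehicle sample alone were added after seeing the data.

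All 10 members are named, and from the other clock list up to 4 called genes per direction and comparison could be named, with PER1 and NR1D1 matched to the 3 genes of highest Pearson r. A gene that this rule covers is not reported here. The members, lists and tests were chosen with earlier results of these data known.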

Additional observations from a re-analysis of the deposited data

Results flagged for a closer look

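The change of NR1D1 from 2 h to 4 h differed between the ligands by a test of the difference itself. It was -0.68 with Dex and -0.23 with CpdA on the log2(RPKM + 0.1) scale, and the interaction was -0.44 ± 0.09 (SE, limma, adjusted p = 0.0209), with 2 samples in each of the 4 groups. The NR1D1 samples did not overlap between any of these 4 groups. Vehicle, which is not part of this test, overlapped only CpdA 2 h. The call was lost without any 1 of the Dex 2 h, CpdA 2 h or CpdA 4 h samples (adjusted p up to 0.104). Dixon's test for an outlying sample was not run on groups of 2.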

How the results depend on the processing

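Of the 38 called differences among 90 (10 members in 9 comparisons), 20 kept direction and call in every alternative and 18 lost the call in at least 1, while 11 others gained it in at least 1. Of 171 counts of called members under an alternative, 142 were within 1.5 times the count reported. With a minimum of 1 RPKM in all samples, which leaves PER2 and DBP untested, CpdA 2 h against vehicle called 2 members in place of 1, Dex 4 h against 2 h called 1 in place of 3, and CpdA 4 h against 2 h called 2 in place of 4. With only the groups compared, CpdA 2 h called 2, Dex 4 h against 2 h called 1, and the interaction of ligand and time called 2 in place of 1. Leaving out each sample in turn, the counts ran from 4 to 5 at Dex 2 h, 5 to 8 at Dex 4 h, 1 to 2 at CpdA 2 h and 0 to 7 at CpdA 4 h against vehicle. They ran from 4 to 6 and from 5 to 7 for Dex against CpdA at 2 h and 4 h, from 1 to 5 for Dex 4 h against 2 h, 0 to 5 for CpdA 4 h against 2 h, and 0 to 2 for the interaction. The count of 0 at CpdA 4 h came without CpdA 4 h replicate 2. The CLOCK difference between Dex and CpdA at 4 h reversed from 0.00 to -0.22 without Dex 4 h replicate 2, and was 0.22 without replicate 1. A group left with 1 sample is assumed to vary like the others. The cause of these changes was not tested. The replicate numbers are not stated to pair samples across groups, and for vehicle alone they coincide with a time in the headers: deviations of same-numbered samples correlated by -0.0568 to 0.198 over 10 pairs of groups (mean 0.0544), and with the number as a replicate block the counts were 5, 7, 1, 6, 5, 6, 3, 4 and 1 in the order above, the same as without it. Depth limits DBP most.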
